A study of Homo sapiens with 5 samples.

Results

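Intronic origins away from gene starts are the sites of replication initiation that ini-seq 2 called inside the introns of protein-coding genes, apart from promoters and exons. A 3-hour origin was counted when its whole interval lay within a protein-coding gene record of GENCODE 44 on hg38, overlapped no exon of any annotated gene, and lay more than 1 kb from the 5' end of every protein-coding and lncRNA gene record. Of 23905 origins called at 3 hours, 3069 met this rule. The other origins were placed in 3 location classes: 11240 lay within 1 kb of a gene 5' end (gene starts), 5741 of the remainder overlapped an exon (exonic), and 3855 overlapped no exon and were not wholly inside a protein-coding gene (outside).

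All samples came from EJ30, an established human bladder carcinoma cell line. In ini-seq 2, nuclei of cells arrested in late G1 by mimosine were incubated with a cytosolic HeLa extract and Br-dUTP, so that replicated DNA became heavy on 1 strand (HL) and unreplicated DNA stayed light (LL). The reaction ran for 3 hours (2 biological replicates pooled in the deposited list) or for 15 minutes, and SNS-seq mapped short nascent strands isolated from EJ30 cells, sequenced apart as strands of 0.5 to 2 kb and of 2 to 4 kb. Each condition is 1 deposited list, so the comparisons below are descriptions with exact Clopper-Pearson 95% intervals, which cover counting error only, and no difference was tested.

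Replication begins where MCM helicases, loaded on DNA in G1, are activated in S phase, and human cells have far more loading sites than sites that fire. Mapped human origins are best known from the CpG islands at gene starts, from GC-rich DNA and from sequences with runs of G that can fold into G-quadruplexes (G4). An origin in an intron lies in DNA that RNA polymerase also crosses when the host gene is transcribed.

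Intronic origins were not of 1 kind of sequence, and the DNA of 5 of them is shown because each stands for a pattern described below. All are given 5' to 3' on the plus strand of hg38. The origin nearest to the medians of efficiency, GC content and length lay in intron 1 of COL6A2, a collagen VI gene, at chr21:46109601-46110000, and 300 of its bases from 46109695 are printed with each CpG in capitals.
COL6A2: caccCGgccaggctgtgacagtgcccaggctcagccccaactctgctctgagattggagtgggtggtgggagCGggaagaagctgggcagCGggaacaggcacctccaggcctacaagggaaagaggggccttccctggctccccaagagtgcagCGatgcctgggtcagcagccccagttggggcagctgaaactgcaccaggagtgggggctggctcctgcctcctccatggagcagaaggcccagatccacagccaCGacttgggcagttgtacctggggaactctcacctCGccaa
The ZBTB46 origin, in intron 1 of a gene for a dendritic cell transcription factor at chr20:63830401-63830800, had the highest possible efficiency, and its first 300 bases are again printed with each CpG in capitals.
ZBTB46: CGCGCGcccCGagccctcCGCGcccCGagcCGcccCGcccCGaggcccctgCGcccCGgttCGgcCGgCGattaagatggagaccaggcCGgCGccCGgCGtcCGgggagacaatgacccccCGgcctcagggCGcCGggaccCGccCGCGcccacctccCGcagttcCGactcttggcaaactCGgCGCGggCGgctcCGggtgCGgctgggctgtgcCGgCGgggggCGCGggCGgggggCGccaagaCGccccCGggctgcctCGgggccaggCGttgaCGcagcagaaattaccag
The origin in intron 8 of WWOX, the gene at a well-known common fragile site (chr16:78725901-78726200), is shown because it held a long pyrimidine run (C and T only), whose 108 nt are in capitals, and overlapped no SNS-seq peak.
WWOX: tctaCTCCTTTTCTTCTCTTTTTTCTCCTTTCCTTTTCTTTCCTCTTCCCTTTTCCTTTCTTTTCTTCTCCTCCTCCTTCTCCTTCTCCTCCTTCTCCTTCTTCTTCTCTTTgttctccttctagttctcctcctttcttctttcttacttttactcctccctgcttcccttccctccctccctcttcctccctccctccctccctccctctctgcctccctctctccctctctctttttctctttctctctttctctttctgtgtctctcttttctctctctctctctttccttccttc
The EXD3 origin (chr9:137310601-137322000) held the most G4 motifs, 23, and 300 bases from 137314550 are shown with motifs in capitals, here as runs of C because the G-runs lie on the minus strand.
EXD3: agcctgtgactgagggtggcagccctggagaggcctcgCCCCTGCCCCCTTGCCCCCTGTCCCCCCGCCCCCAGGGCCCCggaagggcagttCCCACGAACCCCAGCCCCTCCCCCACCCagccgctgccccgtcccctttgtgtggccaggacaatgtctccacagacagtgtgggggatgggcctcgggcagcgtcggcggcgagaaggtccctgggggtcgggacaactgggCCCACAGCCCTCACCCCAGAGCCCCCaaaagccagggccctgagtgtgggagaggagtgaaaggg
The CAMK2B origin, in a gene for a calcium-dependent kinase (chr7:44306801-44307400, printed from 44306967), was made wholly of a tandem repeat, of which 1 unit of 20 nt is in capitals.
CAMK2B: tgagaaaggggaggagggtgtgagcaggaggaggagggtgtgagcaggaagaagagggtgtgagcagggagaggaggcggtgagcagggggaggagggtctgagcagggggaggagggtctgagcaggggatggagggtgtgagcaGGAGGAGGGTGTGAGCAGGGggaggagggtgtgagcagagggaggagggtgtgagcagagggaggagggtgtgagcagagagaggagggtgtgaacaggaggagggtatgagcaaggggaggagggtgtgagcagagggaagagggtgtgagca

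The 3069 origins lay in 1593 host genes, which were 8.68% of the 18342 protein-coding gene records with intron that the rule allows (95% interval 8.28 to 9.1%). Host genes were long, with a median of 68.2 kb against 31.7 kb for all records with allowed intron. A single intronic origin was called in 1076 of the hosts (67.5%), whereas 114 hosts with 5 or more held 1006 of the origins (32.8%). A 3-hour origin lay within 1 kb of the host's own 5' end in 1129 of the 1593 hosts (70.9%, 68.6 to 73.1%), compared with 9390 of the 16749 records without an intronic origin (56.1%, 55.3 to 56.8%). Hosts thus had an origin at their own start more often than the other genes, although hosts were also the longer genes.

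The host with most was PRDM16, the gene of a zinc finger regulator of brown fat and haematopoietic stem cells, with 37 intronic origins in a record of 369 kb (chr1:3069168-3438621, plus strand). Their efficiencies, HL/(HL + LL) in the interval, ran from 0.8 to 0.911 with a median of 0.823, 27 were of the low class, and 33 overlapped an SNS-seq peak. The most efficient, chr1:3393601-3394700 in intron 4, had an efficiency of 0.9114 and a GC content of 71.5% and was not called at 15 minutes. The 1 PRDM16 origin that was called then, chr1:3134901-3136500 in intron 1, had an efficiency of only 0.8183.

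PTPRN2, which encodes a phosphatase-like protein of secretory vesicles, followed with 31, and in this gene 19 origins held a tandem repeat, 13 met the CpG island criterion and 6 were called at 15 minutes. Its 3 origins of the high class, at 183, 895 and 903 kb from the gene start, were all among those called at 15 minutes. GSE1 had 30, with the highest efficiency in this group of hosts, 0.9709 at chr16:85553201-85553800. TAFA5, a gene for a secreted neuropeptide-like protein, had 27, of which 25 were low and none high. The others were RBFOX3, a neuronal splicing regulator (25), SORCS2, a sortilin-family receptor (23), the heart potassium channel gene KCNQ1 (21), the spindle checkpoint gene MAD1L1 (18), the procollagen peptidase gene ADAMTS2 (17) and the Ras GTPase-activating gene RASA3 (16). These 10 genes held 245 intronic origins (7.98%), each had an origin at its own start, and their median efficiencies ranged from 0.815 to 0.852. All 10 records lay within 7.19 Mb of a chromosome end, with RASA3 at 0.232 Mb nearest.

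**Figure D1:**
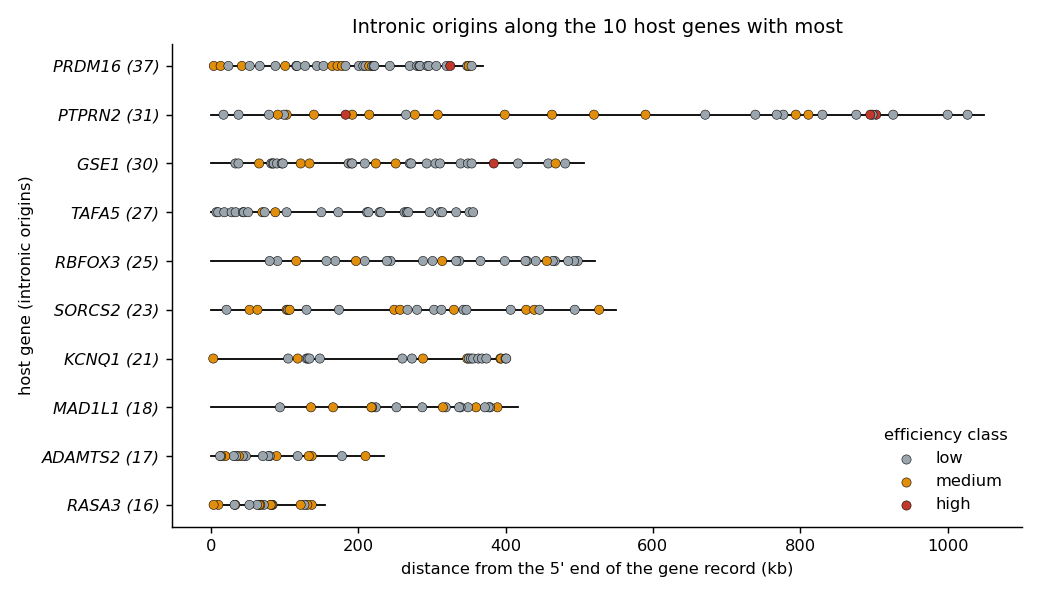
Each horizontal line is 1 of the 10 host genes with most intronic origins, drawn from its 5' end (x axis, kb), and each point is an intronic origin at its centre, coloured by efficiency class. The points spread along the whole genes, most are low (grey), and PTPRN2 has 3 of the 5 high class points.

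Allowed intron amounted to 1164 Mb with a GC content of 41.1%, and it held 2.64 intronic origins per Mb (exact Poisson interval 2.55 to 2.73). The density was highest near the host's 5' end. It was 5.42 per Mb between 1 and 2 kb (4.24 to 6.82), 3.64 between 10 and 20 kb (3.29 to 4.02) and 1.31 beyond 200 kb (1.19 to 1.45). The first introns of the canonical transcripts held 3.45 per Mb (3.23 to 3.69) and the fourth and later introns 2.02 (1.9 to 2.15). The median distance from the 5' end of the host record was nevertheless 40.3 kb, with quartiles of 13.8 and 104 kb. Other annotated features were closer. The nearest exon lay at a median of 2142 bp. When intronic origins were grouped by sequence, the median gap to the nearest transcript 5' end was 3.4 to 10.3 kb. By position relative to gene length, 1632 (53.2%, 51.4 to 55%) were nearer to the 5' than to the 3' end.

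GC-rich intron was more often over a 3-hour origin of any location class close to the start. Exonic and gene start origins that reach into allowed intron are counted here, and the part of each class was not separated. At 1 to 2 kb only 72 intronic origins had their centre, fewer than the GC-rich windows hit. Of the 1 kb windows of allowed intron with a GC content of at least 60%, 71.8% overlapped a 3-hour origin at 1 to 2 kb from the host 5' end (127 of 177, 64.5 to 78.3%), 31.3% at 10 to 20 kb and 19.9% beyond 200 kb (220 of 1105, 17.6 to 22.4%). Over all distances the share was 29.6% of 9532 windows, beside 28.7% of 10353 windows outside protein-coding genes. In introns it rose from 0.0485% at 40 to 45% GC to 48.1% at 65 to 70% GC (45.6 to 50.7%), and was lower in the few windows above that, at 27% between 70 and 75% GC and 10.4% (12 of 115, 5.51 to 17.5%) between 75 and 80% GC. The same decline appeared outside genes, where 39.6% of windows at 65 to 70% GC and 9.72% at 75 to 80% GC overlapped an origin.

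**Figure D2:**
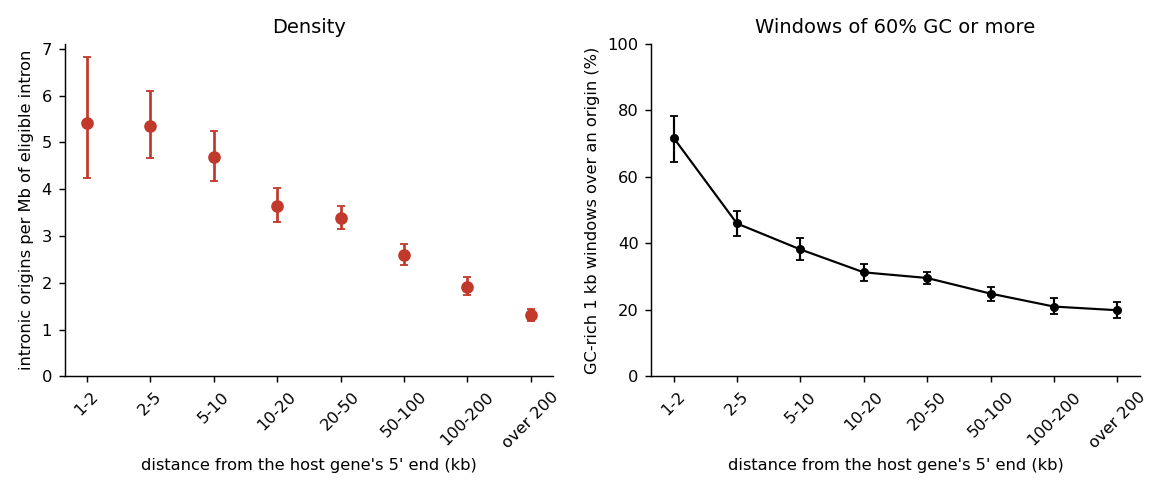
Left, intronic origins per Mb of allowed intron against distance of their centre from the host's 5' end (kb), with exact Poisson 95% intervals. Right, percent of allowed 1 kb intron windows of 60% GC or more that overlap a 3-hour origin of any location class, not only intronic ones, with exact binomial 95% intervals. Both fall with distance, from 5.42 to 1.31 per Mb and from 71.8% to 19.9%.

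Densities differed widely between chromosomes. Chromosome 19 held 10.9 intronic origins per Mb of allowed intron (9.65 to 12.3) and chromosome 22 held 9.68, whereas chromosome X held 0.418 (20 origins, 0.255 to 0.646). None was called in the 3.26 Mb of allowed intron on chromosome Y. Whether these cells carry that chromosome was not examined, so no density is given for it. Within 1 Mb of a chromosome end the density was 15.4 per Mb (13.6 to 17.4), compared with 2.45 elsewhere. Still, only 260 intronic origins (8.47%) lay that close to an end, beside 6.27% of all 3-hour origins. Tandem repeats were found in 80 of these 260 (30.8%, 25.2 to 36.8%) and in 15.9% of the others.

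The rule measures distance from gene records, and some members lay near other annotated starts. Within 1 kb of the 5' end of an alternative transcript of a protein-coding or lncRNA gene there were 348 (11.3%, 10.2 to 12.5%), where the share over all 3-hour origins was 62.3%. Of these 348, 15.5% were of the high class and 16.4% were called at 15 minutes, while of the 2721 farther away 6.5% and 5.4% were. In counts that can share origins with those 348, 436 (14.2%) lay within the gene record but outside the introns of its canonical transcript, and 671 (21.9%) lay within 500 bp of an exon. At the 1 kb limit itself, the nearest members were in intron 1 of BRSK2 (1002 bp from a gene 5' end, efficiency 0.8322) and of SMPD3 (1008 bp, 0.8571). On the other side, only gene start origins wholly inside a protein-coding gene and over no exon were considered. The nearest of those, in CBX8 (998 bp, 0.8172) and THBS3 (995 bp, 0.8213), were likewise of modest efficiency.

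Intronic origins were the least efficient of the location classes. Their efficiency had a median of 0.8305, with quartiles of 0.8138 and 0.8595, just above the limit of 0.8 at which an interval is called. The median was 0.8411 for origins outside protein-coding genes, 0.8487 for exonic origins and 0.911 at gene starts. When all 3-hour origins were divided into 3 equal classes, at 0.8419 and 0.9065, 231 intronic origins were of the high class (7.53%, 6.62 to 8.52%, against 33.3% of all), 927 of the medium and 1911 of the low class (62.3%, 60.5 to 64%, against 33.4% of all). Mean efficiency was lower for intronic origins than for the other origins on 23 of 23 chromosomes with at least 20 of them. At equal base composition the gap depended on the GC content. At 70 to 75% GC the high class held 52.8% of intronic (45.2 to 60.4%), 63.7% of outside, 71.9% of exonic and 89% of gene start origins. At 65 to 70% GC the high class held 5.88% of intronic (4.56 to 7.44%), 10.4% of outside, 12.1% of exonic and 36.3% of gene start origins. At 60 to 65% GC, the step with the most intronic origins (1289), it held 1.09% (0.595 to 1.82%), 1.18, 0.469 and 2.36%. At 55 to 60% GC it held 4.09% of intronic origins (13 of 318, 2.19 to 6.89%). The others had 3.24% (1.63 to 5.71%), 1.33% (0.162 to 4.73%) and 0% (0 to 3.62%) there, so the intervals overlapped and gave no order.

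**Figure D3:**
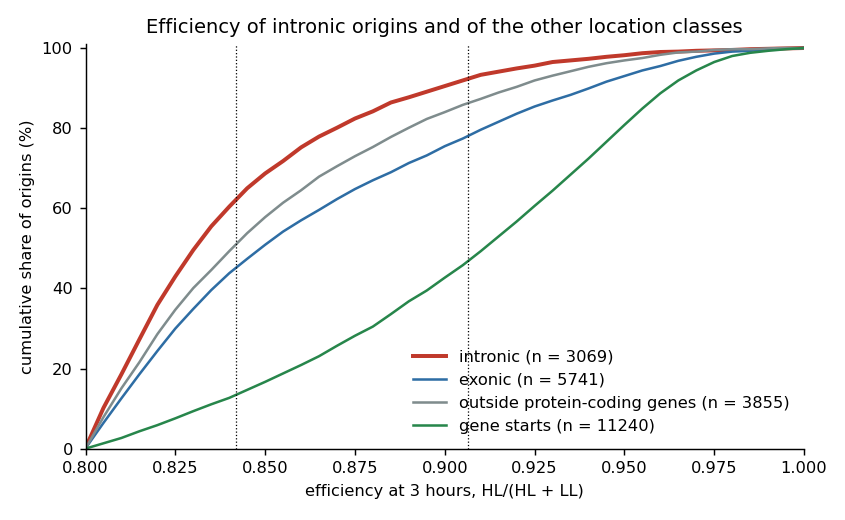
Cumulative percent of origins (y axis) up to a given efficiency at 3 hours (x axis) for the 4 location classes, with dotted lines at the limits between the low, medium and high classes. The intronic curve lies above the others through most of the range: 62.3% of intronic origins are in the low class, beside 13.5% of those at gene starts.

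The 8 most efficient intronic origins named here were CpG-rich and close to alternative transcript starts. They had efficiencies of 0.9885 to 1 and GC contents of 71.3 to 79.2%, and all overlapped SNS-seq peaks of both fractions. In the high class as a whole, 54 of 231 (23.4%, 18.1 to 29.4%) lay within 1 kb of a transcript 5' end. Besides ZBTB46, efficiency was 1 at SLC29A4, a monoamine transporter gene (chr7:5283301-5283600), and at DAB2IP, a Ras GTPase-activating gene (chr9:121736301-121736600). The next were in ZNF217, a zinc finger gene amplified in cancers (0.9964), C4orf51 (0.9912), the developmental transcription factor gene NFIB (0.9898 and 0.9895) and MLLT10, a leukaemia fusion partner (0.9885). An annotated transcript 5' end lay within 162 to 551 bp of each of these 8, and 7 were called at 15 minutes, the exception being DAB2IP. Their intervals were 300 to 700 bp long, and the read counts from which these efficiencies were computed are not given in the list.

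Of the 231 intronic origins of the high class, 157 met the CpG island criterion, a GC content above 50% with an observed over expected CpG ratio above 0.6 (68%, 61.5 to 73.9%). In the medium class 16.4% and in the low class 2.46% did. Over all intronic origins the share was 11.6% (356 of 3069, 10.5 to 12.8%), against 53.7% of all 3-hour origins, 21.2% of those outside and 84.8% of those at gene starts. The 400 bp tiles of allowed intron met the criterion in 0.679% of cases, while intronic origins of exactly that length did in 11%.

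The median intronic origin was 400 bp long with a GC content of 64.2% and a CpG ratio of 0.277, which is far from a CpG island. Quartiles of GC content were 61.5 and 66.5%, and the full range was 35.7 to 80%. The origins stood out as narrow GC peaks: around the high class, mean GC content was 69.2% in the central 200 bp and 47.4% at 4 to 5 kb away, and around the low class 63.5% and 54.4%. The COL6A2 origin printed above is of this common kind, with an efficiency of 0.8301, a GC content of 63.8%, no G4 motif, no 15-minute call and SNS-seq peaks in both fractions. GC skew on the coding strand of the host, (G - C)/(G + C), averaged between 0.0197 and 0.0286 on either side of the origins in every class, and in the centre it was -0.0505 in the high and 0.0226 in the low class.

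A G4 motif, here 4 or more GGG runs separated by loops of 1 to 7 nt, searched on both strands, was held by 1727 intronic origins (56.3%, 54.5 to 58%), beside 71% of all 3-hour origins. Intronic origins were shorter than the others, and among short intervals of equal length no gap was detectable. Among intervals of 300 to 400 bp, 42% of intronic, 43.9% of exonic, 44.1% of outside and 42.8% of gene start origins held a motif, with overlapping intervals. At 800 to 1200 bp the shares were 76.2, 84.7, 80.5 and 84%, with the intronic share lowest. In 400 bp tiles of allowed intron the motif was found in 3.77%. Of 1362 origins with motifs on 1 strand and hosts of 1 direction, 691 had the G-runs on the coding strand (50.7%, 48 to 53.4%), so no preference was detectable.

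The origins with most motifs were long or repetitive. EXD3 had 23 in 11400 bp, which made it also the longest intronic origin, with an efficiency of 0.8456 and a 15-minute call of 1800 bp. The origins of SSH1, a cofilin phosphatase gene, and FGFRL1, an FGF receptor-like gene, had 17 each in 1100 and 1000 bp, with 44.9 and 64% of their bases in tandem repeats and efficiencies of 0.8752 and 0.8333. Neither was called at 15 minutes. The other long ones, of 7100 and 6300 bp, both lay in the phospholipase gene PLCH2 and were of the low class (0.8134 and 0.8169).

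Repeats were more frequent in intronic origins than in the list as a whole. A tandem repeat with units of 7 to 120 nt was found in 527 (17.2%, 15.9 to 18.6%), against 10.6% of all 3-hour origins, 10.3% of exonic and 17.4% of outside origins, and 1.35% of 400 bp tiles of allowed intron. The median unit was 36 nt, and repeats covered a median of 33.9% of the interval. The 5 most repetitive origins, with 97.5 to 100% of their bases in repeats, lay in CAMK2B (efficiency 0.8585), the AMPK subunit gene PRKAG2 (0.8723), the protease gene TMPRSS9 (0.9532), WIPF3 (0.9047) and PTPRN2 (0.8655). None of the 5 was called at 15 minutes, and an SNS-seq peak, of the 2 to 4 kb fraction, lay over the CAMK2B origin only.

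A group of intronic origins, formed after its values were seen, held long stretches of purines on 1 strand and pyrimidines on the other. An unbroken run of at least 50 nt was present in 331 intronic origins (10.8%, 9.71 to 11.9%), while 4.65% of all 3-hour origins, 13.8% of outside, 1.83% of exonic and 1.26% of gene start origins held one. In 400 bp tiles of allowed intron the share was 0.508%. The share among intronic origins was above that among the other origins on 23 of 23 chromosomes. Of the 16832 such runs in allowed intron, 800 overlapped an intronic origin (4.75%, 4.44 to 5.09%). The share of runs over an origin increased with the GC content of the run. For runs of 200 nt or more it was 0.885% below 40% GC, 18.8% at 40 to 60% GC and 28.6% (20 of 70, 18.4 to 40.6%) above that. The unit of these shares is the run, and several runs can lie over 1 origin. Their intervals treat runs as independent and may be too narrow.

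Their median efficiency was 0.8707, above the 0.8275 of the other 2738 intronic origins, at a lower median GC content (55 against 64.7%). Of the high class were 15.4% (11.7 to 19.8%) and 6.57%, respectively. However, 5 were called at 15 minutes (1.51%, 0.492 to 3.49%) and 50 overlapped an SNS-seq peak (15.1%, 11.4 to 19.4%), where the others had shares of 7.27 and 86.6%. Among the high class the contrast was wider: of 51 with a run 6 overlapped an SNS-seq peak (11.8%) and 3 were called at 15 minutes, whereas of 180 without a run 178 (98.9%) and 107 (59.4%) did. With longer runs, efficiency was higher still, with a median of 0.8497 for runs of 50 to 99 nt and 0.8858 for runs of 200 nt or more. Run-holding origins outside protein-coding genes showed similar values, with a median efficiency of 0.8681, 2.44% called at 15 minutes and 18% over an SNS-seq peak, but at gene starts 55.6% were called at 15 minutes and 83.8% overlapped a peak. In both methods reads without a unique alignment were discarded, and the part of read mapping in these values was not tested.

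**Figure D4:**
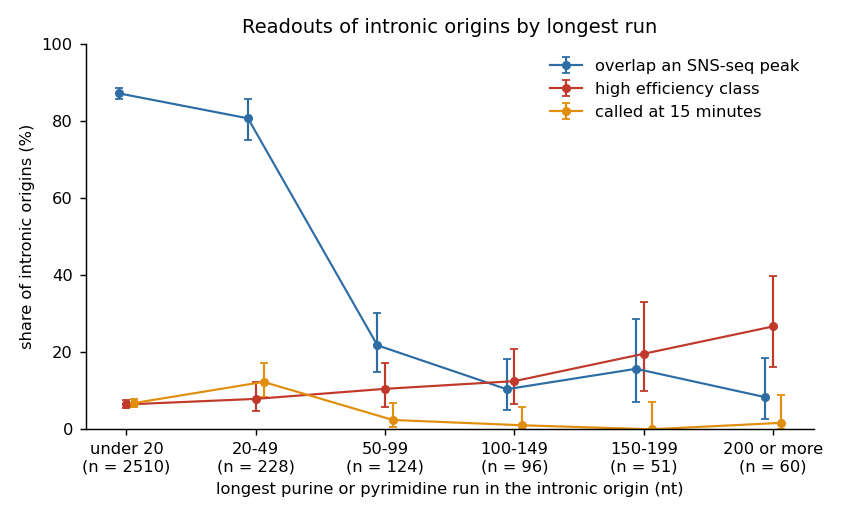
Percent of intronic origins (y axis) that overlap an SNS-seq peak (blue), are of the high efficiency class (red) or were called at 15 minutes (orange), by the longest purine or pyrimidine run in the interval (x axis, nt), with exact 95% intervals. From under 20 nt to 200 nt or more, the SNS-seq share falls from 87.2 to 8.33% while the high class share rises from 6.45 to 26.7%.

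Some of the most efficient origins were picked for the lack of a peak or of a 15-minute call, so that lack is no finding about them. The most efficient intronic origin with no SNS-seq peak within 5 kb, in CSRNP3 (chr2:165666601-165667000), had an efficiency of 0.978, a GC content of 44.5% and a run of 90 nt, and its nearest peak was 14.2 kb away. The origins in EEA1, an early endosome tether gene (0.9286), and in PLXNA4, a semaphorin receptor gene (0.9271), came next, with runs of 174 and 218 nt and the nearest peaks at 11.6 and 8.5 kb, and none of the 3 was called at 15 minutes. In ARHGAP19, an origin of efficiency 0.9809 (chr10:97251301-97251700) combined a run of 118 nt, a repeat with a unit of 11 nt and 5 G4 motifs, without a 15-minute call or an overlapping peak. DAB2IP and KCNN3, a calcium-activated potassium channel gene (0.9805, chr1:154760501-154760800), were the other 2 most efficient origins absent at 15 minutes, but they were GC-rich (76.3 and 74.3%), had no such run and overlapped SNS-seq peaks of both fractions.

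Few intronic origins were called after the short reaction. Of the 3069, 204 overlapped a 15-minute origin (6.65%, 5.79 to 7.59%), where 40.1% of all 3-hour origins did, and 12.3% of outside, 26.9% of exonic and 65.6% of gene start origins. The share was below that of the other origins on 23 of 23 chromosomes. It was 47.6% in the high class (110 of 231, 41 to 54.3%), 7.23% in the medium and 1.41% in the low class, compared with 75.7, 25.4 and 4.32% of exonic origins. Within every step of efficiency the intronic share was the lowest of the 4 classes, although its interval overlapped that of outside origins in most steps. At 0.92 to 0.94, for example, 41.7% of intronic (30 of 72, 30.2 to 53.9%), 48.5% of outside, 74.2% of exonic and 87.8% of gene start origins were called at 15 minutes. At equal length the order was the same: among intervals of 500 to 700 bp the shares were 6.6, 12.2, 20.1 and 49.2% in the same order.

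**Figure D5:**
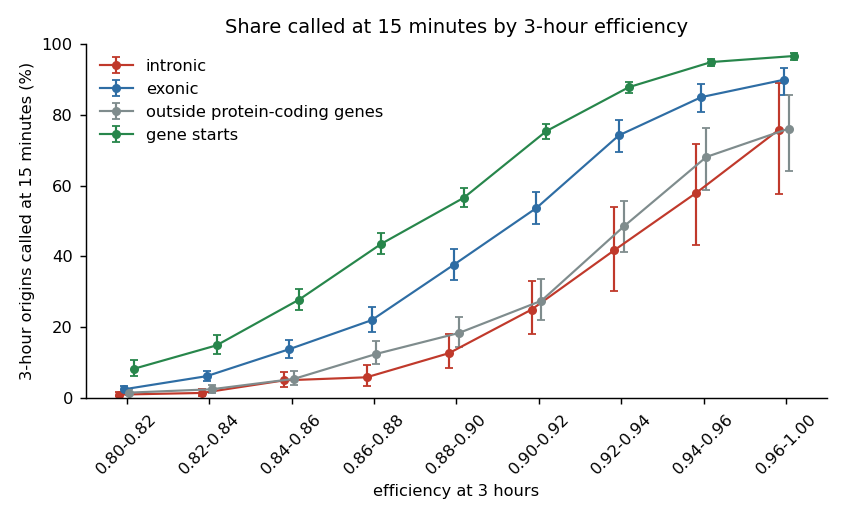
Percent of 3-hour origins that overlap a 15-minute origin (y axis) by their efficiency at 3 hours (x axis), for the 4 location classes with exact 95% intervals. In every class the share rises with efficiency, and the intronic points, from 1 to 75.8%, lie lowest.

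The 204 origins called at both times were mostly CpG-rich. The CpG island criterion was met by 136 of them (66.7%, 59.7 to 73.1%), against 220 of the 2865 others (7.68%), and all but 1 overlapped an SNS-seq peak. Their median length was 800 bp at 3 hours and 500 bp at 15 minutes, and 155 (76%, 69.5 to 81.7%) were longer at 3 hours, beside 86.9% of exonic, 87.9% of outside and 85.9% of gene start origins. The 15-minute Z-score, the score deposited for that reaction, had a median of -0.248 for these origins, -0.49 for outside, -0.153 for exonic and 0.144 for gene start origins. A few low class origins were called early all the same: in KCNQ1 (chr11:2573501-2575600, efficiency 0.811) and in the receptor phosphatase gene PTPRF (0.8113). In both the 15-minute interval was 300 bp, beside a 3-hour interval of 2100 and 1200 bp, and its Z-score was -1.99 and -0.888, respectively.

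SNS-seq peaks lay over 2422 intronic origins (78.9%, 77.4 to 80.3%), beside 91.6% of all 3-hour origins, 76.8% of outside and 96% of exonic origins. The fractions differed: 52.3% overlapped a 0.5 to 2 kb peak and 78.2% a 2 to 4 kb peak, where 78% and 91.3% of all 3-hour origins did. The 2 to 4 kb list covers more of the genome, 127 Mb against 67.7 Mb, so a site is overlapped more easily by it. For 169 intronic origins (5.51%, 4.73 to 6.37%, against 2.41% of all) no peak of either fraction lay within 5 kb, and 114 of the 316 with a run that did not meet the CpG island criterion were among them. In intervals of 300 to 400 bp, 71.6% of intronic, 65.2% of outside, 89.5% of exonic and 90.1% of gene start origins overlapped a peak.

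The share with a peak of either fraction did not follow efficiency, at 79.7% in the high, 70.7% in the medium and 82.8% in the low class. The share with a 0.5 to 2 kb peak did, at 75.8, 52.2 and 49.5%. Without the run-holding origins, the share for either fraction was 98.9, 87.7 and 85%, which also followed efficiency. Over all intronic origins, the share for either fraction declined with distance from the host start, from 94.4% at 1 to 2 kb to 65.1% beyond 200 kb.

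Intronic origins had close neighbours, mostly in the same gene. The nearest other 3-hour origin was at a median distance of 5.5 kb, compared with 4.5 kb for exonic, 8.3 kb for outside and 23.7 kb for gene start origins, and it lay within 10 kb for 62.8% (61.1 to 64.5%, against 48.9% of all). It was another intronic origin in 43.7% of cases, an exonic origin in 26.9% and one at a gene start in 26.6%, and it lay wholly in the same host record in 74.9%. The neighbour was the more efficient of the pair in 61.2% (59.4 to 62.9%). These shares by kind, record and efficiency of the neighbour were not computed over all 3-hour origins, and the other location classes had higher median efficiencies. Ini-domains, groups of at least 6 origins joined at distances up to 100 kb, held 80.3% of intronic origins (78.8 to 81.6%) and 66.7% of all. At the other extreme, the next origin was 3701 kb away from the origin in SLITRK4, a neuronal adhesion gene on chromosome X (chrX:143633701-143634100, efficiency 0.9523, called at 15 minutes), 1638 kb away in CTNNA3 and 1462 kb away in NRXN3, a synaptic adhesion gene whose origin had an efficiency of 0.8305 and a run of 128 nt.

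Lists of host genes gave different densities, and these lists were chosen with earlier results of these data known. In 17 common fragile site genes, which are very long and prone to breakage under replication stress, 23.4 Mb of allowed intron held 6 intronic origins, or 0.257 per Mb (0.0942 to 0.559) beside 2.64 over all allowed intron. Those in WWOX (0.8646), MACROD2 (0.8243), IMMP2L (0.848), CTNNA3 (0.8573) and DLG2 (0.8239) were 1 per gene, and none of these overlapped an SNS-seq peak. None of the 6 was called at 15 minutes. Of 38 genes of the replication machinery, 1 was a host (2.63%, beside 8.68% of all records), namely POLA2, which encodes a subunit of the polymerase that makes primers (chr11:65302001-65302300, efficiency 0.8775). The density in this list was 0.528 per Mb (0.0134 to 2.94), an interval that includes the 2.64 of all allowed intron.

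Of 31 bladder cancer driver genes, 4 were hosts (12.9%, beside 8.68% of all records). They held 15 intronic origins, or 5.94 per Mb (3.32 to 9.79, beside 2.64), of which 12 lay in RXRA, the gene of a nuclear receptor. The remaining 3 were in RB1, the retinoblastoma tumour suppressor gene (0.8278), and in the receptor kinase genes ERBB2 (0.8189) and ERBB3 (0.8497). The density intervals of all these gene lists treat origins as independent. With many origins in 1 gene, as here, they may be too narrow. All 12 RXRA origins overlapped an SNS-seq peak. A pair 8.55 and 10.1 kb from the gene start had efficiencies of 0.9515 and 0.9512, GC contents of 70.3 and 71.6% and 15-minute calls, whereas the other 10, at 12.5 to 90.5 kb, had efficiencies of 0.8014 to 0.9023 and none was called at 15 minutes. Among these lists, hosts were most frequent in the calcium channel alpha-1 genes, which encode the pore of voltage-gated calcium channels. As this list too was chosen with earlier results known, its density is a description of these genes only. Here 8 of 10 genes held 30 intronic origins, or 12.1 per Mb (8.19 to 17.3), led by CACNA1C and CACNA1H with 7 each. CACNA1H, a record of 68.7 kb, had a density of 129 per Mb. The most efficient were in CACNA1D (0.9539), which was called at 15 minutes, and in CACNA1C (0.9226, GC content 53.8%), which was neither called then nor under an SNS-seq peak.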

How the data were processed

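Ini-seq 2 and SNS-seq lists of EJ30 cells were used, 1 per condition. For both ini-seq 2 reactions the authors aligned reads to hg38 with bowtie2, kept unique alignments, removed duplicates, tallied reads of either density per 100 bp, joined enriched bins (log2 HL/LL no less than 2) up to 500 bp apart and kept intervals with HL/(HL + LL) of at least 0.8. The value deposited at 3 hours is this efficiency, a fraction, under a heading that names it a Z-score, and 2 biological replicates were pooled in it. For the 15-minute list the authors deposited a score instead, the Z-score of each origin. SNS-seq peaks were called by the authors with MACS2 against genomic DNA, and only their positions were deposited. None of the lists gives counts, so depth per origin is unknown. The genomic DNA sample was not analysed here.

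Overlap means at least 1 bp. The smallest protein-coding record around an origin was its host, and distances run from the host 5' end to the centre of the origin. Allowed intron is all sequence that meets the rule for origins. Tandem repeats needed 80% identity between neighbouring units over at least 50 nt. For them every 200th tile was searched. G4 motifs, repeats and runs were searched with functions tested on simulated sequence. Named hosts are the 10 with most origins, and origins named singly are the extremes of efficiency (also among those called or not called at 15 minutes, or without SNS-seq peaks), length, motif content, isolation and distance, the one nearest to the medians and the most efficient of each listed gene. Those on chromosome 8 are counted and not named, and a few others that the rule names are not reported here. PRDM16, PTPRN2, GSE1 and RXRA origins named beyond that were chosen after their values were seen. Members and lists were chosen with earlier results of these data known. Alternatives were other distances, exon and transcript sets, overlap rules, motif definitions and an efficiency limit of 0.9. Python 3.11.15, numpy 2.4.6, pandas 2.3.3, scipy 1.17.1 and pysam 0.24.0 were used.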

Additional observations from a re-analysis of the deposited data

How the results depend on the processing

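Of 85 alternative values for 12 results, 58 stayed within the 95% interval of the reported value (for the number of origins, within 1.5 times) and 27 did not. An efficiency limit of 0.9 left 291 intronic origins, and among these 40.5% were called at 15 minutes, 75.9% overlapped an SNS-seq peak, 67.4% held a G4 motif, 60.8% met the CpG island criterion, 22.7% held a tandem repeat, 46.8% of single-strand G4 origins had the G-runs on the coding strand, and the median GC content was 69.4%. With a distance of 5 kb from gene starts, 5.57% were called at 15 minutes, 77.1% overlapped an SNS-seq peak and 9.95% met the CpG island criterion. With distance taken from every transcript 5' end, these shares were 5.4% at 15 minutes and 9.89% for the criterion, and 6.5% were of the high class. The 15-minute share was 8.28% for calls within 1 kb and 3.94% where at least 50% of the interval had to be covered. The SNS-seq share was 86.8% within 1 kb, 94.5% within 5 kb, 51.6% for both fractions together and 52.3% for the 0.5 to 2 kb fraction alone. Loops of up to 12 nt gave a G4 share of 78.7%, a stricter island criterion (55% GC, a ratio of 0.65, 500 bp) 5.7%, and repeats of 90% identity 12%. The density at 1 to 2 kb was 4.12 times that beyond 200 kb (3.16 to 5.31). With distance from the nearest transcript 5' end it was 10.8 times, with a wide interval that overlapped the first (5.17 to 27). For the run-holding origins, with alternatives chosen after seeing the data, the SNS-seq share of 15.1% was 22.5% for runs of at least 30 nt, 11.1% for at least 100 nt, and 62.5% with peaks within 5 kb. The cause was not tested for any of these. No paired analysis was possible because each condition is 1 list. The lists hold no counts, so the counting error of each efficiency is unknown, intervals of 300 bp hold only 3 windows of the authors' caller, and overlap with SNS-seq depends on the width of its peaks.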

Other observations

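The rule was also applied to the origins called after 15 minutes. Of 10181, 299 lay wholly inside a protein-coding gene, over no exon and more than 1 kb from every gene 5' end (2.94%, exact 95% interval 2.62 to 3.28%). No 3-hour origin overlapped 29 of these 299 (9.7%, 6.59 to 13.6%), where the share over all 15-minute origins was 4.89% (4.48 to 5.33%).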
